A study of Mus musculus with 2 samples.

Results

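Bmi1, Hopx, Lrig1 and Msi1 are genes used to mark reserve stem cells of the intestine, and they were chosen by name, with all 4 found among the 13373 genes measured. Reserve stem cells are slowly dividing or resting crypt cells that sit just above the crypt base and can refill the crypt when the fast dividing Lgr5 cells of the base are lost. Each of these genes has since been seen in wider sets of crypt cells, Lgr5 cells included, so a transcript alone does not mark such a cell. The gene products act at different levels. BMI1 is a subunit of a Polycomb complex that silences chromatin, MSI1 binds messenger RNA and controls its translation, LRIG1 is a membrane protein that restrains ErbB receptors, and HOPX is a small homeodomain protein that does not bind DNA itself.

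The values came from single-cell RNA sequencing of Apc mutant intestinal organoids of C57Bl mice aged 3 to 4 months. Organoids are self-organising epithelial cultures, and loss of Apc leaves Wnt signalling on. A library treated with DBZ, which inhibits the gamma-secretase that activates Notch, was set against a library treated with DMSO, its vehicle. A treatment text that both samples share names 300 nM 4-hydroxytamoxifen and 10 uM DBZ, and the sample titles were taken for the treatment. The Apc allele, and what the tamoxifen acts on, is information not given in the sources used here. Both libraries are Apc mutant by their titles, so neither stands for normal epithelium.

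The DBZ library had 1241 cells and the DMSO library 968. Median depth was 10901 UMIs per cell with DBZ and 11183 with DMSO, where a UMI counts 1 captured transcript, and 3 cell barcodes occurred in both libraries. Each treatment had 1 library, so no test between treatments was possible and every difference is one between these libraries. All intervals below are 95% intervals that cover counting error only. Markers of other tissues were few: of 7 fibroblast markers Vim alone was in the table (5.73 per 10000 UMIs with DBZ and 11.7 with DMSO), of 7 immune markers Cd74 (0.312 and 0.127) and of 5 endothelial markers Pecam1 (0.0293 and 0.0239). The Paneth cell markers, 15 of 16 in the table, had a mean summed level of 276 with DBZ and 64.1 with DMSO, and 1 of them was listed at 0 in DMSO cells. Hes1, the main Notch target gene of this tissue, had 0.851 with DBZ and 3.34 with DMSO, for a log2 change of -1.91. The part of such shifts in cell makeup in the values of whole libraries was not tested, and values within cell clusters are given beside them.

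Of the 4 genes, 2 were higher with DBZ and 2 lay near the same level in both libraries. Bmi1 and Msi1 had a log2 change over 0.5, a size reached by 12.7% of the 8797 genes that had UMIs in 10% or more of the cells with DBZ or with DMSO, a filter all 4 passed. Of the 4, 0 were under -0.5, against 6.4% of those genes. Past 1 in size there were 0 of the 4, beside 2.14% of genes over 1 and 1.38% under -1. A level is UMIs per 10000 UMIs of a cell, averaged over cells and not divided by transcript length, so levels are not compared between genes. The change is the log2 ratio of mean levels with 0.05 added to each, which understates the change of genes as low as these, and its median over the 8797 genes was 0.11.

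**Figure D1:**
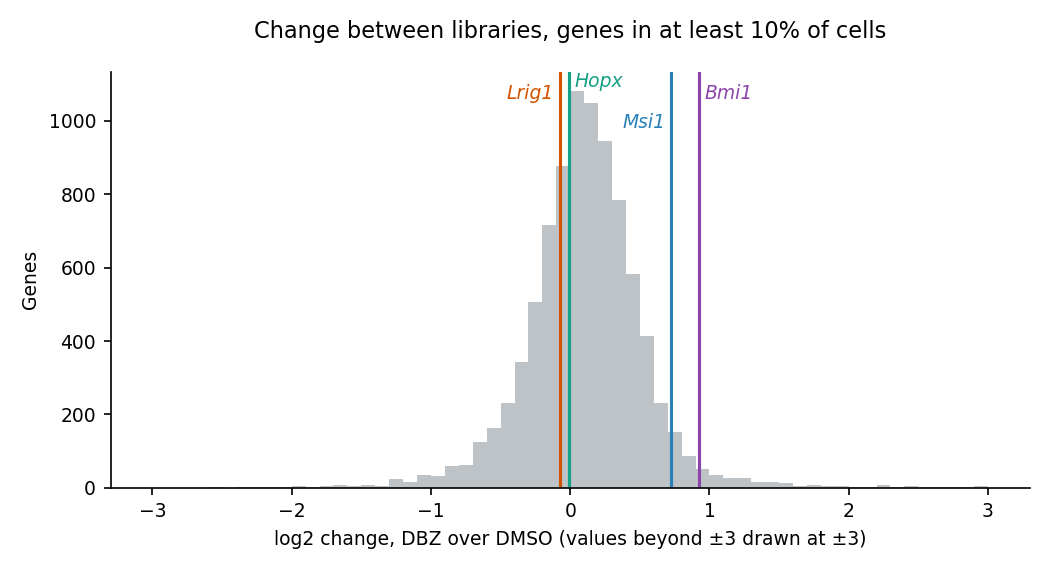
Distribution of the log2 change between the DBZ and DMSO libraries over 8797 genes, with lines at the 4 reserve stem cell genes. Bmi1 (0.93) and Msi1 (0.73) lie in the upper tail, while Hopx (-0.01) and Lrig1 (-0.08) lie within the bulk, just below the median of 0.11.

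**Figure D2:**
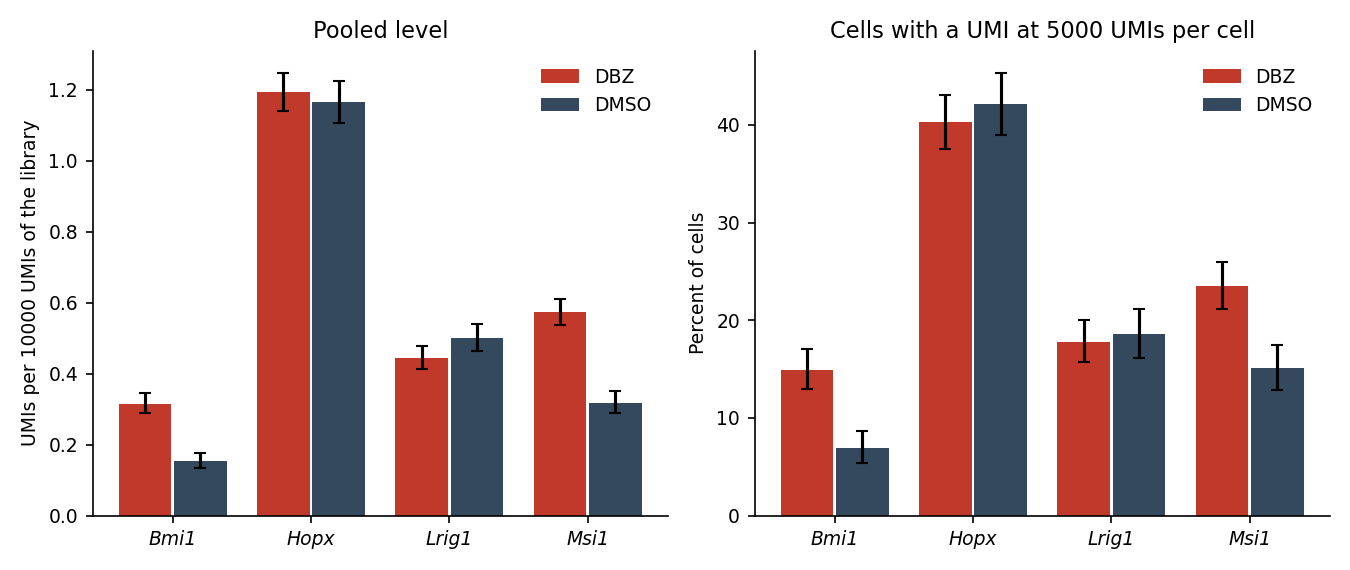
Left, pooled level of each gene in UMIs per 10000 UMIs of the library. Right, percent of cells with at least 1 UMI after every cell was thinned to 5000 UMIs. Bars show the DBZ and DMSO libraries (1 each) with 95% counting intervals. Bmi1 stood at 0.316 with DBZ against 0.154 with DMSO and Msi1 at 0.573 against 0.318, while the bars of Hopx (1.19 and 1.16) nearly match.

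Bmi1 (protein coding, chromosome 2, 18677018 to 18686629 on the plus strand of GRCm38) had the largest difference of the 4. It encodes the PCGF subunit of Polycomb repressive complex 1, which marks histone H2A with ubiquitin and keeps the Ink4a/Arf tumour suppressor locus (Cdkn2a) silent. Cells treated with DBZ gave 511 Bmi1 UMIs and cells treated with DMSO gave 201. The mean level per cell was 0.320 per 10000 with DBZ and 0.145 with DMSO, a ratio of 2.21 and a log2 change of 0.93. Pooled UMIs gave a log2 ratio of 1.04 (0.80 to 1.28). A change at least as high was seen in 2.54% of the 8797 genes, and in 2.07% of the 2702 genes whose mean level was within 1.5-fold of that of Bmi1.

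More cells carried Bmi1 transcripts in the DBZ library. With DBZ, 31.9% of cells held a Bmi1 UMI (29.3 to 34.6%), and with DMSO 17.4% did (15.02 to 19.9%). When every cell was thinned at random to 5000 UMIs, 14.9% of DBZ cells (13.0 to 17.0%) still held one and 6.92% of DMSO cells (5.40 to 8.71%), again without overlap of the intervals. A single UMI was all that 303 of 396 positive DBZ cells and 138 of 168 positive DMSO cells held. In positive cells the median level was 0.894 per 10000 with DBZ and 0.706 with DMSO, at median depths of 13187.5 and 16232.5 UMIs. No cell held more than 4 Bmi1 UMIs with DBZ or 3 with DMSO, and the 5 highest cells gave 3.99% and 9.86% of the mean. Without those 5 cells of each library the log2 change was 0.99.

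The bases in front of the Bmi1 start site are shown because Bmi1 differed most and because the inhibitor acts on a pathway whose nuclear factor reads DNA. The sequence is from RefSeq (GRCm38.p6), the 250 bases before the start at chr2:18676768-18677017, plus strand. The search, on both strands, was for TGGGAA (bound by RBPJ, the DNA-binding partner of Notch), CTTTGA (TCF/LEF factors of the Wnt pathway), CACGTG (the E-box of MYC and others) and CACGCG (HES repressors), and matches are in capitals. An entry was found for 3 of the 4 genes.

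Bmi1: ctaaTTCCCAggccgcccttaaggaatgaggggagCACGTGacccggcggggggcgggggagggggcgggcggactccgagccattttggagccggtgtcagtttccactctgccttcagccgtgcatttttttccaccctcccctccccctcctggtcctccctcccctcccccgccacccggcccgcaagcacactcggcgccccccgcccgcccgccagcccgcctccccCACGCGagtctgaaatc

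TGGGAA was found once, on the minus strand, 246 bases before the start. CACGTG lay 215 bases and CACGCG 17 bases before it, CTTTGA was not in this window, and no matches overlapped. Over 32817 start-site windows of the same length, 21.6% held TGGGAA, 13.8% CTTTGA, 6.02% CACGTG and 7.62% CACGCG. These letters are a description and show no binding.

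Across cell states, Bmi1 was spread widely. Cells of both libraries were clustered together on 2000 variable genes, none of which was one of the 4 genes described here, and this gave 12 clusters. Levels were compared in clusters with at least 20 cells of a library, which were 10 clusters with DBZ and 7 with DMSO. With DBZ the mean level ran between 0.445 per 10000 in cluster 4 (led by Spock2 and Mt3) and 0.212 in cluster 2 (Sprr1a and Reg3g), and neighbours in the order had overlapping intervals. With DMSO it was highest in the enteroendocrine-like cluster 10 (0.417, from 12 UMIs in 32 cells) and lowest in cluster 2 (0.0908), a 4.59-fold range.

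The DBZ library was also higher within most clusters that both libraries filled. In the dividing-like cluster 6, with 136 DBZ and 158 DMSO cells, Bmi1 had 0.355 per 10000 with DBZ and 0.184 with DMSO, and the pooled log2 ratio was 1.00 (0.52 to 1.49). In clusters 2, 3 and 4 the log2 changes were 0.90, 0.86 and 0.72, with intervals of the pooled ratio that reached below 0, since 9, 29 and 87 DBZ UMIs stood against 21, 7 and 8 DMSO UMIs. The enteroendocrine-like cluster gave 0.309 with DBZ and 0.417 with DMSO (pooled log2 ratio -0.40, -1.44 to 0.72). Over these 5 clusters, weighted equally, the change was 0.47, against 0.93 over all cells. Of the genes seen in each cluster, between 3.47% (cluster 3) and 11.7% (cluster 4) had a change as high as Bmi1 in clusters 2, 3, 4 and 6.

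The other genes of the complex were mixed. Polycomb repressive complex 1 also needs a RING protein, and its CBX and PHC subunits set where it binds and how it packs chromatin. All 21 other genes on the list of this complex passed the filter of 10% of cells. The change was over 0.5 in 5 of them (12.7% of all 8797 genes) and under -0.5 in 2 (6.4% of all genes). The list median was 0.10, close to that of all genes. Cbx2, a chromatin-binding subunit, had 0.281 per 10000 with DBZ and 0.135 with DMSO (0.84). Bcor, a corepressor of a variant complex, had 0.322 and 0.176 (0.72), and Pcgf3, a relative of Bmi1, had 0.494 and 0.302 (0.63). The 2 lower genes were Pcgf5 (0.116 with DBZ and 0.192 with DMSO, -0.55) and Cbx8 (0.135 and 0.219, -0.54). The catalytic RING genes differed little, with 0.05 for Rnf2 and -0.15 for Ring1. Cbx6, another chromatin-binding subunit, had 0.869 and 0.710 (0.27).

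Polycomb repressive complex 2 places the histone mark that complex 1 reads. Of its 9 tested genes, 0 were over 0.5 (12.7% of all genes) and 0 under -0.5 (6.4%), and the median was 0.03. Its methyltransferase gene Ezh2 had 0.620 with DBZ and 0.681 with DMSO, and Rbbp7, a histone-binding subunit, had 2.05 and 2.21. Transcripts of Cdkn2a, the target that BMI1 silences, were nearly missing: 14 UMIs in the DBZ library, and listed at 0 in the DMSO library. Among the 5 cyclin-dependent kinase inhibitor genes tested, Cdkn1a (the p21 gene) alone was past 0.5, with 1.78 per 10000 with DBZ and 3.12 with DMSO, for a log2 change of -0.79. That list had a median of 0.02.

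Msi1 (protein coding, chromosome 5, 115429599 to 115455698 on the plus strand) was the other gene that was higher with DBZ. Musashi 1 binds messenger RNAs and represses, or at times promotes, their translation, with the Notch inhibitor Numb among its targets. Msi1 UMIs numbered 927 with DBZ and 416 with DMSO. The mean level was 0.604 per 10000 with DBZ and 0.345 with DMSO, a ratio of 1.75 and a log2 change of 0.73. Pooled UMIs gave 0.85 (0.68 to 1.02). A change as high was seen in 5.05% of the 8797 genes.

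With DBZ, 48.2% of cells held an Msi1 UMI (45.4 to 51.0%), against 32.3% with DMSO (29.4 to 35.4%). Thinned to 5000 UMIs, 23.5% of DBZ cells did so (21.2 to 26.0%), against 15.1% of DMSO cells (12.9 to 17.5%). The intervals did not overlap in either case. Cells with 3 or more Msi1 UMIs numbered 73 with DBZ and 18 with DMSO. In GRCm38 the gene lies opposite 4930430O22Rik on the other strand, and use of strand in the counting is a step not given in the sources used here.

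Among cell states, Msi1 had a similar top and bottom of the order in both libraries. With DBZ the mean was highest in cluster 4 (0.894 per 10000), followed by the enteroendocrine-like cluster (0.750), cluster 8 led by Cyp2c55 (0.697) and cluster 5 led by Nts and Ly6d (0.649), with overlapping intervals between neighbours. It was lowest in the Paneth-like cluster 7 (0.274) and cluster 2 (0.253). With DMSO the enteroendocrine-like cluster (0.573), cluster 4 (0.540) and cluster 0 led by Sfrp5 and Egr4 (0.501) were highest and cluster 2 (0.0954, from 21 UMIs in 118 cells) lowest, a 6.01-fold range. This range depended on the clustering: as a log2 ratio with 0.05 added it was 2.0994, and 1.1077 with coarser clusters at Leiden resolution 0.5. In both libraries, then, clusters 4 and 10 had the highest means and cluster 2 the lowest. With DMSO this top rests on few UMIs, 18 in 31 cells of cluster 4 and 15 in 32 cells of cluster 10. Their pooled intervals, 0.351 to 0.937 and 0.284 to 0.836, overlapped that of cluster 0 (0.409 to 0.556). The interval of cluster 10 also overlapped those of clusters 1, 3 and 6. The Paneth-like clusters were not alike with DBZ: cluster 9, rich in Defa21 and Defa22, had 0.568 and cluster 7, rich in Defa17 and Defa3, had 0.274, with pooled intervals of 0.481 to 0.736 and 0.182 to 0.367.

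Within the dividing-like cluster 6 Msi1 had 0.446 per 10000 in DBZ cells and 0.249 in DMSO cells, a pooled log2 ratio of 0.75 (0.34 to 1.15). The other 4 shared clusters also had higher means with DBZ, with log2 changes of 1.057 in cluster 2, 0.68 in cluster 4, 0.48 in cluster 3 and 0.36 in cluster 10, each with a pooled interval that included 0. Of the genes seen in each cluster, between 5.27% (cluster 2) and 25.3% (cluster 10) had a change as high as Msi1, with 12.9% in cluster 4 and 13.9% in cluster 3. Equal weighting of the 5 clusters gave 0.60. Without the 6 clusters that drew over 90% of their cells from 1 library, a choice made after seeing the data, the change was 1.04.

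The close relative Msi2 had 0.870 per 10000 with DBZ and 0.762 with DMSO, for a log2 change of 0.18. Of the 7 tested genes on the list of Musashi relatives and reported targets, 0 were over 0.5, beside 12.7% of all genes. Under -0.5 was 1, Cdkn1a, beside 6.4% of all genes, and the list median was 0.08. Numb itself had 0.210 with DBZ and 0.148 with DMSO (0.39). The transcript levels of these targets do not report on their translation.

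Lrig1 (protein coding, chromosome 6, 94604529 to 94700158 on the minus strand) was near the same level in both libraries, and was more often seen in dividing cells. Its product is a transmembrane protein with leucine-rich repeats that binds EGF receptor family members and promotes their breakdown. Lrig1 had 719 UMIs with DBZ and 656 with DMSO. The mean level was 0.431 per 10000 with DBZ and 0.457 with DMSO, for a log2 change of -0.08. The pooled ratio, which weights deep cells more, was -0.17 with an interval of -0.33 to -0.02. With DBZ, 37.1% of cells held an Lrig1 UMI (34.4 to 39.8%), and with DMSO 37.5% did (34.4 to 40.6%). Thinned shares of 17.8% and 18.6% also had overlapping intervals. Slc25a26 overlaps Lrig1 on the other strand and had 95 UMIs with DBZ and 64 with DMSO.

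Dividing cells held more Lrig1 in both libraries. In cells with a UMI of Mki67, a gene transcribed in cycling cells, thinned Lrig1 UMIs were found in 28.0% of 107 DBZ cells (19.8 to 37.5%), against 16.8% of the 1134 DBZ cells without Mki67 (14.7 to 19.2%). With DMSO the same held for 29.6% of 98 cells with Mki67 (20.8 to 39.7%) and 17.4% of 870 cells without it (14.9 to 20.04%). The intervals of the cells with and without Mki67 did not overlap in either library. Without thinning, shares for cells with and without Mki67 were 54.3% and 34% with DBZ, and 67.6% and 30.9% with DMSO. Cells with Mki67 were deeper, at a median of 16273 UMIs beside 10547.5 in the others for DBZ, and 19457 beside 10567.5 for DMSO. The cluster levels showed the same order, since the dividing-like cluster 6 had the highest mean with DMSO (0.672) and the second highest with DBZ (0.573), after cluster 4 (0.596).

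Other states with more Lrig1 were cluster 8 with DBZ (0.512) and cluster 0 with DMSO (0.544). The lowest means were 0.288 in cluster 5 with DBZ and 0.235 in cluster 4 with DMSO. Cluster 4 was thus at opposite ends of the order in the 2 libraries, with 116 UMIs in 170 DBZ cells and 7 UMIs in 31 DMSO cells. There the pooled log2 ratio was 1.40 (0.31 to 2.75). In the other 4 shared clusters its interval included 0, with log2 changes from -0.40 in cluster 10 to 0.59 in cluster 2, and cluster 6 had -0.21.

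Lgr5 is the receptor gene that marks crypt base stem cells. Thinned Lrig1 UMIs were in 19.4% of DBZ cells with Lgr5 and 16.9% of those without, and in 21.8% and 16.3% of DMSO cells, with overlapping intervals in both libraries.

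**Figure D3:**
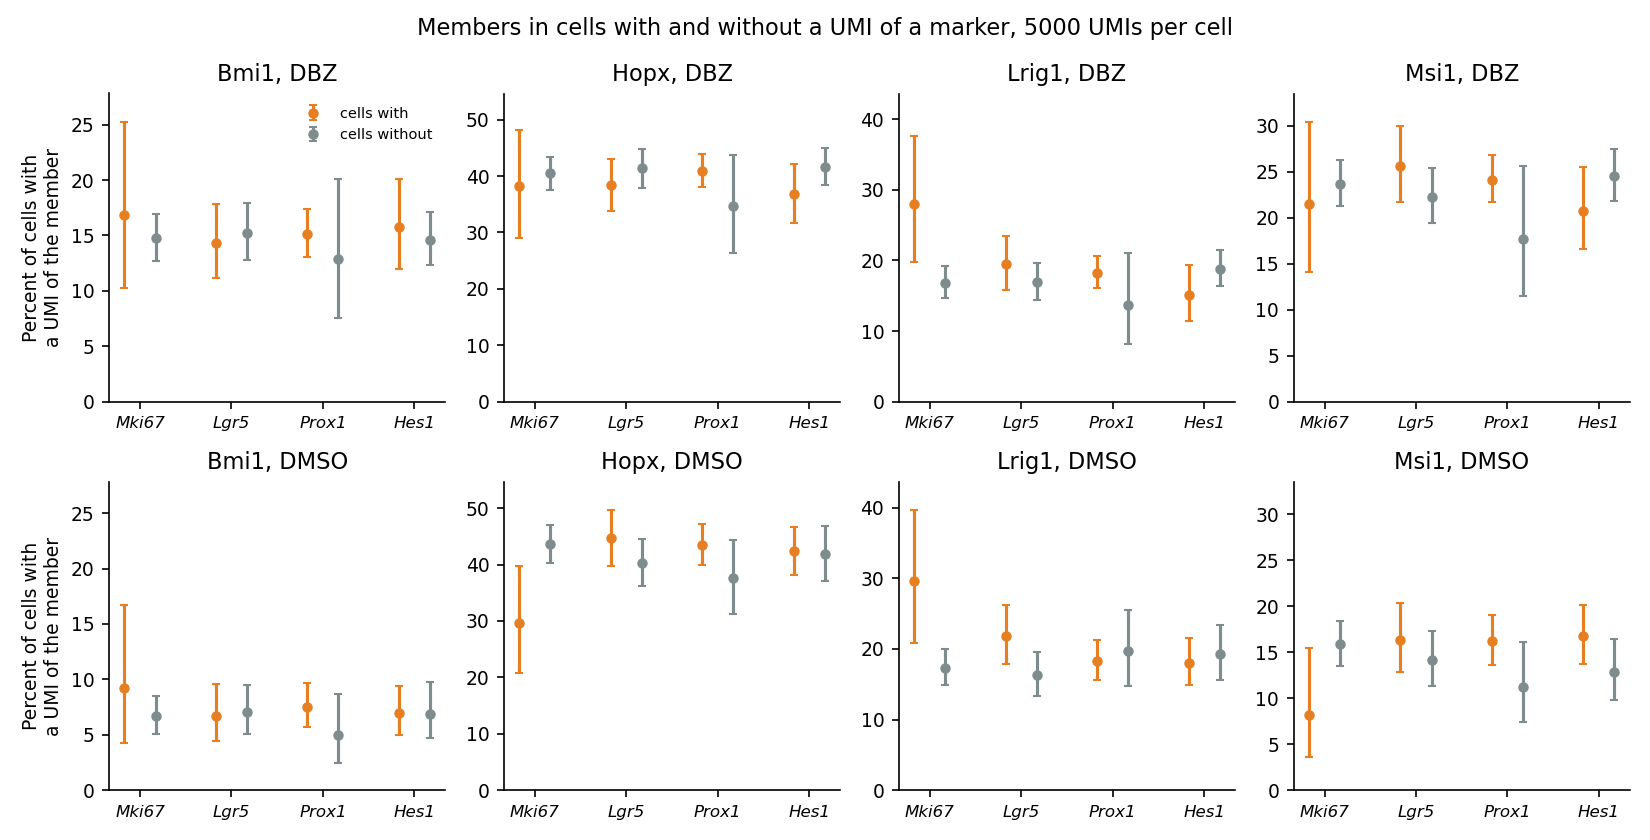
Percent of cells with a UMI of each gene (columns) in DBZ cells (top) and DMSO cells (bottom), split by whether the cell held a UMI of the marker on the horizontal axis, after thinning to 5000 UMIs per cell. Points are shares with exact 95% binomial intervals. Lrig1 with Mki67 (28.0% against 16.8% with DBZ, 29.6% against 17.4% with DMSO) is the pair whose intervals are apart in both libraries.

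Genes of the receptor system that LRIG1 restrains went both ways. On the list of its relatives and receptors, 2 of 5 tested genes were over 0.5 (12.7% of all genes) and 0 under -0.5 (6.4%). The list median was 0.40. Met, the receptor of hepatocyte growth factor, had 0.228 per 10000 with DBZ and 0.112 with DMSO (0.78), and Egfr had 0.165 and 0.0852 (0.67). Erbb3, an ErbB receptor gene, had 0.210 and 0.235 (-0.13), and Lrig2, a relative of Lrig1, had 0.0969 and 0.0616 (0.40).

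Of 4 tested EGF receptor ligands, 0 were over 0.5 (12.7% of all genes) and 2 under -0.5 (6.4%). Hbegf had 0.808 with DBZ and 3.76 with DMSO (-2.15), and Areg had 0.749 and 2.18 (-1.48). Feedback inhibitors of receptor tyrosine kinases, which such signalling itself induces, had 10 genes tested. Of these, 6 were under -0.5 (6.4% of all genes) and 1 over 0.5 (12.7%), and the list median was -0.69. Errfi1, which blocks the EGF receptor kinase, had 1.03 with DBZ and 3.30 with DMSO (-1.64). The MAP kinase phosphatase genes Dusp5 and Dusp6 had -1.44 and -1.22. Cblb, a ubiquitin ligase gene, was the one above 0.5, with 0.235 and 0.118 (0.76). Lrig1, also a feedback inhibitor by function, thus had -0.08 beside a list median of -0.69. Hbegf and Errfi1 were among the top 10 genes of cluster 0 (307 DMSO and 9 DBZ cells). Areg was among those of cluster 1 (216 DMSO and 3 DBZ cells). The part of this makeup in their changes was not tested.

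Hopx (protein coding, chromosome 5, 77086988 to 77115121 on the minus strand) had the change nearest to 0 of the 4 genes between the libraries, while its level varied with cell state. Its product has a homeodomain that lacks DNA contacts and works through partners such as serum response factor and histone deacetylases, as known from heart muscle. Hopx had 1930 UMIs with DBZ and 1524 with DMSO. The mean level was 1.21 per 10000 with DBZ and 1.22 with DMSO, for a log2 change of -0.01, and the pooled ratio was 0.04 (-0.06 to 0.13). With DBZ, 66.3% of cells held a Hopx UMI (63.6 to 68.9%), and with DMSO 72.0% did (69.1 to 74.8%). Thinned to equal depth, 40.3% of DBZ cells held one (37.5 to 43.1%) beside 42.1% of DMSO cells (39.0 to 45.3%), and these intervals overlapped. Cells with 3 or more UMIs made up 272 of 823 positive DBZ cells and 202 of 697 positive DMSO cells. The antisense gene Hopxos was counted as a gene of its own, with 86 UMIs with DBZ and 43 with DMSO. As use of strand is not given, whether reads of either gene were counted for the other was not tested.

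The 250 bases before the upstream start of Hopx (RefSeq, GRCm38.p6, chr5:77115124-77115373, minus strand) are shown to set the gene whose change was nearest to 0 beside Bmi1.

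Hopx: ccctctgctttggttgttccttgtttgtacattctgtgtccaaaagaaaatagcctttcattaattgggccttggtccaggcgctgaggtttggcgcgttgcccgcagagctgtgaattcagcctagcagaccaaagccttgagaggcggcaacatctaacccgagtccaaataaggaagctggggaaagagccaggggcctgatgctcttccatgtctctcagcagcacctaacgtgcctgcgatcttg

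This window held no match to the motifs searched, so it has no capitals. The window before a second RefSeq start of Hopx, which overlaps exons of Hopx and Hopxos and is not printed, held CACGTG 86 bases before that start and no other match. The Lrig1 window, also not printed, held no match, and Msi1 had no entry. G and C made up 70.4% of the Bmi1 window, 52.4% of the printed Hopx window and 71.6% of the Lrig1 window. Any link between these matches and the changes was not tested.

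Hopx was highest in the enteroendocrine-like cluster in both libraries. In cluster 10, led by Reg4, Chgb and Chga, the mean was 2.38 per 10000 in 95 DBZ cells and 2.24 in 32 DMSO cells, with Hopx UMIs in 84.2% and 81.2% of them. With DBZ the pooled interval of 2.07 to 2.74 lay above those of all other 9 clusters, the nearest being cluster 8 at 1.35 to 1.66 and cluster 9 at 1.24 to 1.63. With DMSO the interval of 1.58 to 2.65 overlapped those of cluster 3 (1.35 to 1.94), led by Pmp22 and Arl14, and cluster 4 (0.830 to 1.64). Hopx was lowest in cluster 2 (0.487 with DBZ and 0.827 with DMSO), and cluster 5, nearly all of DBZ cells, was also low (0.625). The highest mean was 4.89-fold the lowest with DBZ and 2.71-fold with DMSO. As a log2 ratio with 0.05 added the DBZ range was 2.18, and 1.13 with coarser clusters at Leiden resolution 0.5.

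Inside cluster 10, cells were split by UMIs of Neurog3, Chgb and Chga, a choice made after the values were seen. Hopx was higher in the 17 DBZ cells with a UMI of Neurog3, the gene that starts endocrine fate. These had 3.64 pooled Hopx UMIs per 10000 (2.73 to 4.76), against 2.13 (1.80 to 2.50) in the 78 DBZ cells without Neurog3. In DMSO cells the intervals overlapped, with 1.81 (0.901 to 3.23) in 7 cells with Neurog3 and 2.13 (1.58 to 2.80) in 25 without. Msi1 was higher in the 69 DBZ cells with Chga, which encodes a granule protein of mature endocrine cells, at 0.925 (0.699 to 1.20), against 0.373 (0.171 to 0.708) in the 26 without. In DMSO cells Msi1 had 0.448 (0.205 to 0.850) with Chga and 0.631 (0.232 to 1.37) without. The Msi1 intervals overlapped in both libraries, with DBZ only just. Over the splits by Neurog3, Chgb and Chga, all 4 genes and both libraries, intervals were apart only for Hopx by Neurog3 in DBZ cells.

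Among shared clusters, the interval of the Hopx ratio left out 0 in cluster 2 alone. There Hopx had 26 UMIs in 29 DBZ cells and 148 in 118 DMSO cells, a pooled log2 ratio of -0.71 (-1.37 to -0.10). In the other 4 the interval included 0, with log2 changes from -0.32 in cluster 3 to 0.11 in cluster 6.

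Among DMSO cells, Hopx was less often seen in those with Mki67. Thinned Hopx UMIs were in 29.6% of DMSO cells with Mki67 (20.8 to 39.7%) and 43.6% of those without it (40.2 to 46.9%). The dividing-like cluster 6 did not stand apart in this way. Its 158 DMSO cells had a thinned Hopx share of 39.2% (31.6 to 47.3%), beside 42.1% of all DMSO cells (39.0 to 45.3%). DBZ cells had 38.3% with Mki67 (29.1 to 48.2%) and 40.5% without (37.6 to 43.4%), and these overlapped. Whether the libraries differ in this was not tested. Unthinned shares ran the other way (77.7% and 64.3% with DBZ, 80.3% and 70.2% with DMSO), in cells whose depth differed as given above.

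Of 8 tested genes for partners of Hopx and related factors, 1 was over 0.5 (12.7% of all genes) and 1 under -0.5 (6.4%). The list median was 0.21. Gata6, a transcription factor gene of endoderm, had 0.901 per 10000 with DBZ and 0.446 with DMSO (0.94). Klf4, a factor of differentiated epithelium, had 0.525 and 0.804 (-0.57). Hdac2, a histone deacetylase gene, had 1.13 and 1.08 (0.06), and Srf had 0.673 and 0.809 (-0.25).

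**Figure D4:**
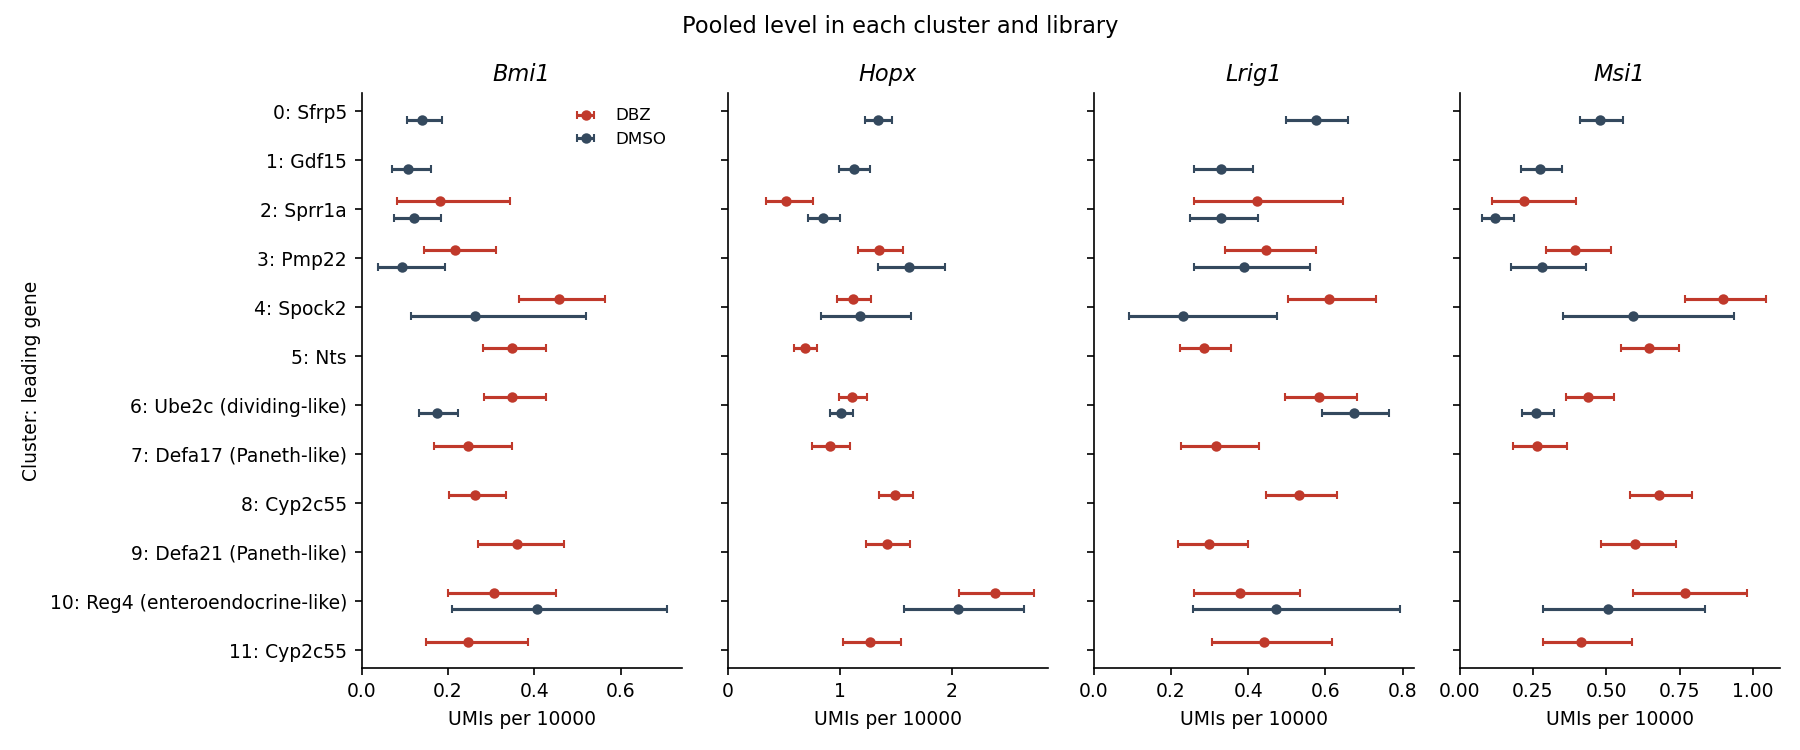
Pooled level (UMIs per 10000 UMIs) of each gene on the horizontal axis in each cluster, for groups with at least 20 cells, DBZ above DMSO, with exact 95% Poisson intervals. Hopx is highest in the enteroendocrine-like cluster 10 of both libraries, Lrig1 is high in the dividing-like cluster 6 of both, and Bmi1 lies higher with DBZ in cluster 6 (0.3495 against 0.174).

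At equal depth, the shares of cells with several of the 4 genes lay near the product of the single shares. After thinning, a cell with UMIs of all 4 genes was found once with DBZ and 2 times with DMSO. That was 0.0806% of DBZ cells (0.00204 to 0.448%), where the product gives 0.252%. With DMSO it was 0.207% (0.0250 to 0.744%), where the product gives 0.0818%. These counts are too small to set against the product. Cells with 3 of them made up 4.19% of DBZ cells (3.15 to 5.46%), against 3.79% from the product of the single shares, and 2.27% with DMSO (1.43 to 3.42%), against 2.03%. Cells with none were 33.04% with DBZ, where the product gives 31.9%, and 38.2% with DMSO, where it gives 37.2%. Without thinning, all 4 were seen in 6.69% of DBZ and 3.82% of DMSO cells.

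Of the 6 pairs, thinned, those furthest above the product were Hopx with Lrig1 in the DBZ library and Lrig1 with Msi1 in the DMSO library. Both Hopx and Lrig1 were in 8.38% of DBZ cells (6.90 to 10.1%) against a product of 7.17%, but in 7.64% of DMSO cells against 7.84%. Both Lrig1 and Msi1 were in 3.79% of DBZ cells against 4.19%, and in 3.82% of DMSO cells (2.71 to 5.23%) against 2.80%. After thinning the product lay inside the interval for all 6 pairs in both libraries. Without thinning, where cells differ in depth, the share with both genes was above the product for all 6 pairs in both libraries. For Bmi1 and Lrig1 it was 14.1% with DBZ against a product of 11.8%, and 8.68% with DMSO against 6.51%.

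Across the 17 groups of cluster and library, Bmi1 and Msi1 had the most similar pattern of the 6 pairs, with Pearson's r of 0.74 on the log2 scale. The value was 0.70 over the 10 DBZ groups and 0.68 over the 7 DMSO groups. Hopx and Msi1 had 0.42 (0.50 and 0.68), and the 3 pairs with Lrig1 lay between 0.02 and 0.10. These points share cells, depth and the 2 libraries, so the correlations are a description.

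Genes with patterns most like each of the 4 were ranked in the same way among 8410 genes. For Msi1 they were Tcf12 (0.93), a helix-loop-helix factor, Kdm1a (0.93), a histone demethylase, Tuba1a (0.93), an alpha-tubulin, Ddx5 (0.91) and Klhdc2 (0.91), and each held at 0.88 or more within both libraries. Tcf12 had 2.06 per 10000 with DBZ and 1.28 with DMSO. For Hopx they included Abhd14a (0.93), Cplx2 (0.88), Chd7 (0.87) and Bmp7 (0.86), with 0.85 or more within each library. For Bmi1 they were Slc39a9 (0.90), Hacd3 (0.88), Zfp687 (0.88), Phf12 (0.87) and Ppp6r1 (0.87), but over the DBZ groups alone Hacd3 had 0.32 and Slc39a9 0.63. For Lrig1 they were Mut (0.82), Zdhhc6 (0.78), Ptcd3 (0.75), Cdkn2aipnl (0.72) and Wdr92 (0.72). Many genes were compared over few groups, and how high such values run by chance was not tested.

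Of the markers Lgr5, Prox1, Mki67, Hes1 and Clu, Prox1, a homeobox gene of intestinal tumours, followed Msi1 most, with r of 0.78 over the 17 groups (0.92 with DBZ and 0.65 with DMSO). In single cells thinned Msi1 UMIs were seen in 24.2% of Prox1-positive DBZ cells and 17.7% of the others, and in 16.2% and 11.2% of DMSO cells split likewise, with overlapping intervals. Lgr5 had r of 0.42 with Msi1 (0.83 with DBZ and 0.50 with DMSO) and 0.01 with Bmi1 (0.72 and 0.06). Thinned Msi1 UMIs were in 25.7% of DBZ cells with Lgr5 and 22.3% without, and in 16.4% and 14.2% of DMSO cells. For Bmi1 these shares were 14.3% and 15.3% with DBZ, and 6.70% and 7.08% with DMSO, all with overlapping intervals. Hes1 had r of -0.66 with Bmi1 over all groups, but -0.01 within the DBZ groups and -0.61 within the DMSO groups. Thinned Bmi1 UMIs were in 15.7% of DBZ cells with Hes1 and 14.6% without, and in 6.93% and 6.90% of DMSO cells.

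Clu, which encodes the secreted chaperone clusterin and marks cells that rebuild the damaged crypt, was added to the markers after its values were seen and ran against Hopx, with r of -0.69 (-0.83 with DBZ and -0.72 with DMSO). In DBZ cells thinned Hopx UMIs were in 34.8% of cells with Clu (30.8 to 38.9%) and 44.8% of cells without (41.0 to 48.6%). DMSO cells had 36.6% with Clu (29.2 to 44.6%) and 43.2% without (39.8 to 46.7%), and these overlapped.

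Further genes used for reserve or injury-resistant stem cells went both ways. Of 14 listed, 11 were in the table and 10 passed the filter. Of these 10, 4 were over 0.5 (12.7% of all genes) and 3 under -0.5 (6.4%), with a median of 0.39. Clu had 4.40 per 10000 with DBZ and 0.860 with DMSO (2.29). Mex3a, an RNA-binding protein gene of slowly dividing progenitors, had 0.601 and 0.310 (0.85), and Prox1 had 9.42 and 5.90 (0.67). Prom1, which encodes the membrane protein CD133, was the other one over 0.5 (0.52). Igfbp4, a binding protein of insulin-like growth factors, had 0.440 and 1.72 (-1.85), and Krt19, a keratin gene, had 2.31 and 4.27 (-0.87). Ly6a had 0.181 and 0.404 (-0.98), with 47.3% and 34.3% of these means from 5 cells. Cd24a, a surface protein gene, had 10.6 and 7.69 (0.47).

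The genes of crypt base stem cells, 14 of which were tested, had 2 over 0.5 (12.7% of all genes) and 4 under -0.5 (6.4%). Their median was -0.27. The list names Tnfrsf19 also by its older name Troy, which was not matched. Rnf43 (1.33 with DBZ and 0.745 with DMSO, 0.79) and Znrf3 (0.822 and 0.506, 0.65), both inhibitors of Wnt receptors, were the higher ones. Aqp4 (0.0136 and 0.1703, -1.79), Smoc2 (1.04 and 2.53, -1.24) and Cdca7 (0.381 and 0.955, -1.22) were the lowest. Axin2, a Wnt target, had 3.86 and 2.75 (0.48). The 22 cell division genes had 0 over 0.5 (12.7% of all genes) and 12 under -0.5 (6.4%). Their median of -0.51 stands beside the -0.08 of Lrig1, the gene that was more often seen in cells with Mki67. Ccnb1 (-0.92), Cdc20 (-0.85) and Mcm3 (-0.79) were the lowest of them, and Ube2c had 0.804 with DBZ and 1.36 with DMSO (-0.72).

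**Figure D5:**
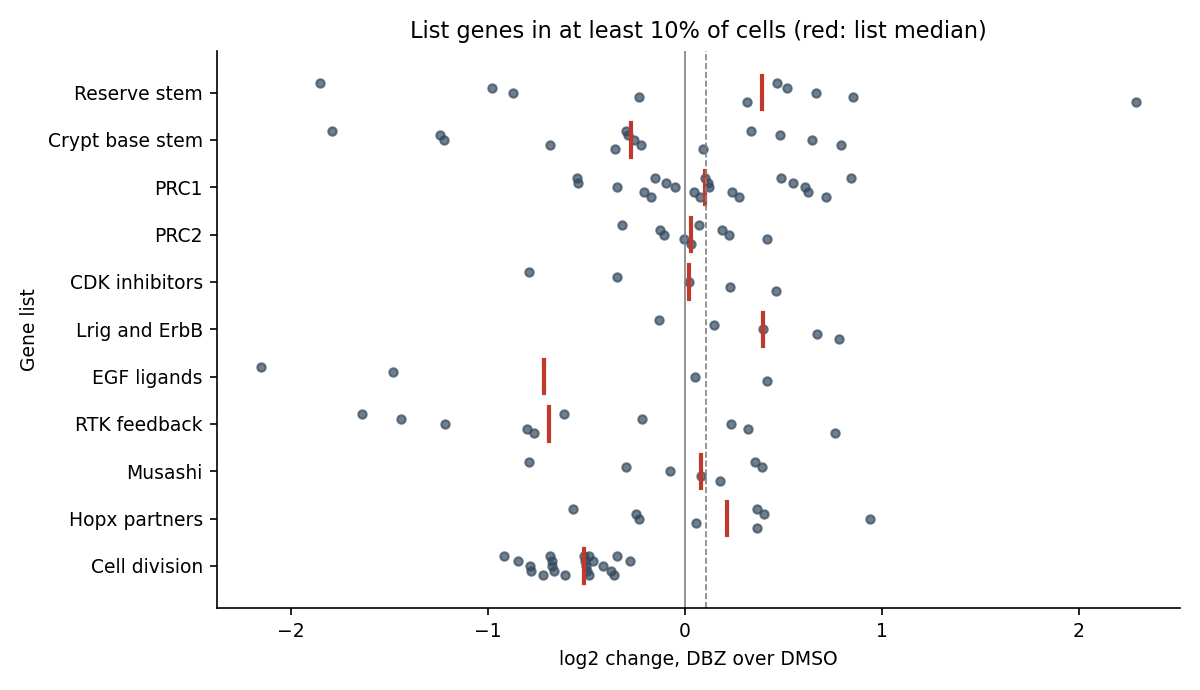
Log2 change between the DBZ and DMSO libraries of each listed gene seen in at least 10% of cells, by list, 1 point per gene. Red bars are list medians and the dashed line is the median of all 8797 genes (0.11). The medians run from -0.72 for EGF receptor ligands to 0.40 for the Lrig and ErbB list.

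Free RNA in the droplets can place single UMIs in cells that do not make a transcript. No cluster could be taken as a cell type known to lack these genes, so the lowest share over groups of at least 20 cells, thinned to 5000 UMIs, is given for each gene. For Bmi1 it was 6.49% with DBZ (cluster 7, 2.14 to 14.5%) and 3.70% with DMSO (cluster 1, 1.61 to 7.17%). For Msi1 it was 10.3% with DBZ (2.19 to 27.4%) and 5.93% with DMSO (2.42 to 11.8%), both in cluster 2. Lrig1 had 10.5% with DBZ (cluster 10, 5.16 to 18.5%). With DMSO it had 3.23% (cluster 4, 31 cells, 0.0816 to 16.7%). Hopx had 13.8% with DBZ (3.89 to 31.7%) and 33.9% with DMSO (25.4 to 43.2%), both in cluster 2. Unthinned, the lowest Bmi1 shares were in other clusters, 23.2% with DBZ (cluster 10) and 9.52% with DMSO (cluster 3). The part of free RNA in these shares was not tested, and the lowest of several shares sets no bound on it.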

How the data were processed

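Both organoid libraries were captured in droplets (10x Genomics) with a target of 3000 cells each, per the labels' protocols. Per the submitters' processing notes, Cell Ranger 2.1.1, Seurat and mm10 are named. Annotation, filters and strand are items not given in the sources used here. Values in the table that the authors deposited are on a natural log scale, and exp(value) - 1 sums to 10000 in each cell. All 7553435 values above 0 were whole multiples of 1 step per cell (tolerance 0.01), which gives UMIs. Cell names beginning GSI were read as DBZ and CTRL as DMSO, by meaning.

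A level is the mean over cells of UMIs per 10000, not divided by transcript length. Pooled UMIs have exact Poisson intervals, their ratios exact conditional ones and shares Clopper-Pearson ones. As each group has 1 library, no count model of the difference between treatments was fitted and no p-value was used. The exact intervals treat UMIs as counts and cover counting error only. Thinning to 5000 UMIs left out 0 cells. Clusters were made with scanpy 1.11.5 and igraph 0.11.9 (2000 variable genes, 30 components, 15 neighbours, Leiden resolution 1). A cluster was named where 3 or more of its top 10 genes by fold were markers of 1 class, and otherwise stayed unnamed. Clusters 7 and 9 were Paneth-like, 10 enteroendocrine-like and 6 dividing-like. Scrublet called 2 DBZ and 6 DMSO cells doublets, which were kept. The code was tested on simulated data, and all simulated UMIs came back.

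The 4 genes, the lists, the markers and the alternatives were chosen with earlier results of these data known. Genes named beside the 4 are the 5 most similar in pattern over groups, and in each list those past 0.5 (up to 3 per direction) and the one of highest mean level, which only picks a gene to name. Numb, Msi2, Lrig2, Rnf2, Ring1, Ezh2, Srf, Cdkn2a and Hopxos, and the splits by Clu, Neurog3, Chgb and Chga were added after their values were seen. Of the genes the rule names, 1 is not reported here.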

Additional observations from a re-analysis of the deposited data

How the results depend on the processing

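Over all alternatives tried, 14 values moved, and 64 differed by less than the counting error of the reported value or, for counts, by less than 1.5-fold. That error is wide for ranges over clusters: the log2 range of Msi1 with DMSO, 2.0994, was 1.1077 at Leiden resolution 0.5, and that of Bmi1 with DBZ, 0.9173, was 1.3199. Bmi1 and Msi1 stayed above 0 in every one, while Hopx and Lrig1, near 0, took either sign. A pseudocount of 0.5 in place of 0.05 gave log2 changes of 0.35 for Bmi1 and 0.385 for Msi1. With the 5 shared clusters weighted equally the changes were 0.47 for Bmi1, -0.11 for Hopx and 0.19 for Lrig1. Without the Paneth-like and enteroendocrine-like clusters Hopx had -0.13. Without clusters over 90% from 1 library, an alternative chosen after seeing the data, Hopx had 0.13 and Msi1 1.04. Thinning changed the difference in share of cells, DBZ minus DMSO, to 7.99 percentage points for Bmi1, -1.86 for Hopx and 8.45 for Msi1. Before thinning these were 14.6, -5.69 and 15.9. Thinned cells hold fewer UMIs and all hold the same number, and the part of each in these moves was not tested. At Leiden resolution 0.5 the log2 range of Hopx over DBZ clusters was 1.13, against 2.18. A log2 threshold of 1 in place of 0.5 left 1 of the 113 listed genes tested higher and 9 lower, against 15 and 31. Of all 8797 genes, 2.14% were over 1 and 1.38% under -1, against 12.7% over 0.5 and 6.4% under -0.5. No paired analysis was possible because each group has 1 library. Depth limits the low genes: Bmi1 had 9, 7 and 8 UMIs in cluster 2 with DBZ and clusters 3 and 4 with DMSO, where only large differences were detectable. The causes of the moves were not tested.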
